A study of Mus musculus with 2 samples.

Results

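Matrix metalloproteinases and their tissue inhibitors were examined in the CD45+ cells of the mouse adrenal gland. The rule names the genes and uses no measured value, although it was set with earlier results of these data known: the 5 metalloproteinase genes Mmp12, Mmp13, Mmp14, Mmp9 and Mmp19 and the 2 inhibitor genes Timp1 and Timp2, 7 of the 32285 genes counted. All 7 had UMIs (unique molecular identifiers, each standing for 1 captured RNA molecule), and 5 of them had at least 200 over both libraries.

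C57Bl/6 mice of both sexes, 7 weeks old, gave the adrenal glands, which were digested, from which live CD45+ cells (leukocytes) were sorted, and droplet 3′ single-cell RNA sequencing was run on 1 library of females and 1 library of males. No treatment or genetic change is given for either group, and the number of animals behind each library is not stated. With 1 library per sex no test across animals could be made. Every interval below is an exact 95% interval that covers counting error only, and a female to male difference compares these 2 libraries.

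Matrix metalloproteinases are zinc-dependent enzymes that cut proteins of the extracellular matrix and of cell surfaces. Most are secreted as inactive precursors and need their propeptide to be removed, while MMP14 is anchored in the cell membrane. Tissue inhibitors of metalloproteinases (TIMPs) block the active site of the enzymes, and TIMP2 together with MMP14 also takes part in the activation of MMP2. In macrophages MMP12 is known as the macrophage elastase, and in neutrophils MMP9, or gelatinase B, is stored in granules. Levels here are of RNA, not of enzyme activity.

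After filtering, 3694 female and 2449 male cells remained, the median cell holding 3489.5 and 3008 UMIs, and 2 barcodes occurred in both libraries. Xist, transcribed from the inactive X chromosome, had 21372 UMIs in the kept cells of the library labelled female and 6 in that labelled male, and the Y-linked Ddx3y had 0 and 705. Cells were clustered without the 7 genes, and the clusters were named from marker lists. The 11 classes named are called like cells since they rest on RNA alone. The other macrophage-like cells (640 female, 532 male) carried Adgre1, Mertk, Fcgr1 and the C1q genes, and their Lyve1-high and Aldh1a2-high lists were both not raised. Lyve1-high macrophage-like cells (91 and 165) carried Lyve1, Folr2 and Timd4. The Aldh1a2-high cells (88 and 98) are called cells only, since the summed level of the 10 macrophage markers was 4495 and 3633 CPM (counts scaled to 1000000 UMIs of the class) in them against 53537 and 41811 CPM in the other macrophage-like cells. Monocyte-like cells numbered 302 and 180, neutrophil-like cells 48 and 50, and lymphocyte-like cells (B, T and NK) 2070 and 1011. A small endothelial-like class (43 and 48 cells) was present although a CD45 gate should remove it, and it also held macrophage markers at 7296 and 10808 CPM.

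Among the named classes Mmp12 was highest in the other macrophage-like cells of both libraries, far above every other named class. Its level there was 414 CPM (391 to 439) in the female and 526 CPM (497 to 558) in the male library, from 1181 and 1164 UMIs. These cells held 89.7% and 89.1% of all Mmp12 UMIs of their libraries. Of the named classes, Mmp12 was thus mostly read from this one in both libraries.

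Mmp12 lies on chromosome 9 (GRCm38, chr9:7344381-7369499, plus strand) and Mmp13 lies 61049 bases before it (chr9:7272514-7283331, plus strand), in a run of 9 metalloproteinase genes. Of the 7 other genes in that run, Mmp8 had 104 female and 94 male UMIs over all cells, Mmp27 had 1 and 0, and Mmp1b, Mmp3, Mmp10, Mmp20 and Mmp7 had 0. Mmp1b, which overlaps Mmp12 on the other strand, therefore gave no counts of its own. The 250 bases before the annotated starts of this neighbouring pair, read from the RefSeq promoter table of GRCm38.p6 on the plus strand, are shown since both genes were highest in the same class. The capitals mark the AP-1 heptamer TGAGTCA, or TGACTCA on the other strand, and an octamer of the PU.1 type, GAGGAAGT or ACTTCCTC.

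Mmp12 chr9:7347124-7347373: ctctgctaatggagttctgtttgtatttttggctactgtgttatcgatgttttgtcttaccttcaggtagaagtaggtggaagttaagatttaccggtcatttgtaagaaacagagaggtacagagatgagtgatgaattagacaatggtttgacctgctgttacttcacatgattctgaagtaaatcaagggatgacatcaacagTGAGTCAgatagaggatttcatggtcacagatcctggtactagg

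Mmp12 chr9:7344147-7344396: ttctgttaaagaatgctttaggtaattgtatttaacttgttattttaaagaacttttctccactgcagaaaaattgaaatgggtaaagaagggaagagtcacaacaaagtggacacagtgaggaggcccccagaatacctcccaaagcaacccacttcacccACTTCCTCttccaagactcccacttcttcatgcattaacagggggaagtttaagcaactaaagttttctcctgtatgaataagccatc

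Mmp13 chr9:7272264-7272513: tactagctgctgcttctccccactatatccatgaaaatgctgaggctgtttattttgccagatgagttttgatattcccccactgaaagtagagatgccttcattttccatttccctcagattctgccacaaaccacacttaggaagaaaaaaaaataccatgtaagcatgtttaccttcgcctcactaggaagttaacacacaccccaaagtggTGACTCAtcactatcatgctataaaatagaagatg

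In the first Mmp12 window TGAGTCA began 44 bases before the start, and in the Mmp13 window TGACTCA began 35 bases before it. The second Mmp12 window, which belongs to the more upstream of the annotated starts, held ACTTCCTC 88 bases before that start. Of 32851 windows of this length, 4.46% held the AP-1 heptamer and 2.44% held the octamer on either strand. The windows of Mmp14, Timp1 and Timp2 held neither. A match of letters is a description of the window and shows no binding.

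In the other named classes Mmp12 was lower in both libraries. An unnamed cluster of 70 female and 142 male cells with few UMIs, which carried macrophage markers, had 440 CPM (311 to 604) and 630 CPM (494 to 792), as high as the other macrophage-like cells or higher. Lyve1-high macrophage-like cells had 6 female and 2 male UMIs, or 25.6 CPM (9.38 to 55.6) and 5.14 CPM (0.622 to 18.6). The other macrophage-like cells exceeded them 16.2-fold (7.43 to 44.3) in the female and 102-fold (28.3 to 847) in the male library. These 2 macrophage classes of the same gland thus stood far apart in Mmp12. Monocyte-like cells had 8.16 and 15.3 CPM from 8 and 9 UMIs, and neutrophil-like cells had 1 and 0 UMIs. In B cell-like cells, which should lack the gene, the level was 2.26 and 4.19 CPM. Other macrophage-like cells were 183-fold (71.4 to 674) and 126-fold (42.9 to 611) above them.

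The share of cells with an Mmp12 UMI was compared after each cell had been drawn down to 1000 UMIs. It was 19.0% (16.1 to 22.3) of 630 female and 18.6% (15.3 to 22.1) of 528 male other macrophage-like cells, against 0.201% and 0.794% of B cell-like cells. Without the draw the shares were 36.4% and 37.4%, with a median of 3947 and 3493.5 UMIs per cell, against 0.777% and 1.12% in B cell-like cells with medians of 2208 and 1744 UMIs. Most macrophage-like cells thus had no Mmp12 UMI at this depth, and some had many. The highest female cell held 39 UMIs, and the highest male cell held 121, which was 1.08% of that cell's RNA count. The 5 cells with the most Mmp12 held 12.9% of the female and 29.3% of the male UMIs of the class.

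Aldh1a2-high cells came next in the female library, with 104 CPM from 31 UMIs, of which 28 lay in 1 cell with 9 of the 10 macrophage markers. In the male library they had 53.1 CPM from 22 UMIs. Endothelial-like cells had 100 and 107 CPM from 14 and 18 UMIs, held by 3 and 4 cells. The summed macrophage markers were 23904 and 26374 CPM in those few cells and 3913 and 8431 CPM in the endothelial-like cells without Mmp12. When doublet removal was left out and the clusters were rebuilt, the endothelial-like cells held 8.79 and 13.2 CPM. In order of level, the other macrophage-like cells stood 3.99-fold (2.79 to 5.90) above the next class in the female and 4.90-fold (3.09 to 8.29) in the male library. Below them only the step from endothelial-like to Aldh1a2-high cells in the male library, 2.02-fold (1.02 to 3.95), exceeded counting error, and all other neighbours in both orders did not. That step depends on 1 male endothelial-like cell, which held 15 of the 18 UMIs and 10 of the 10 macrophage markers.

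**Figure D1:**
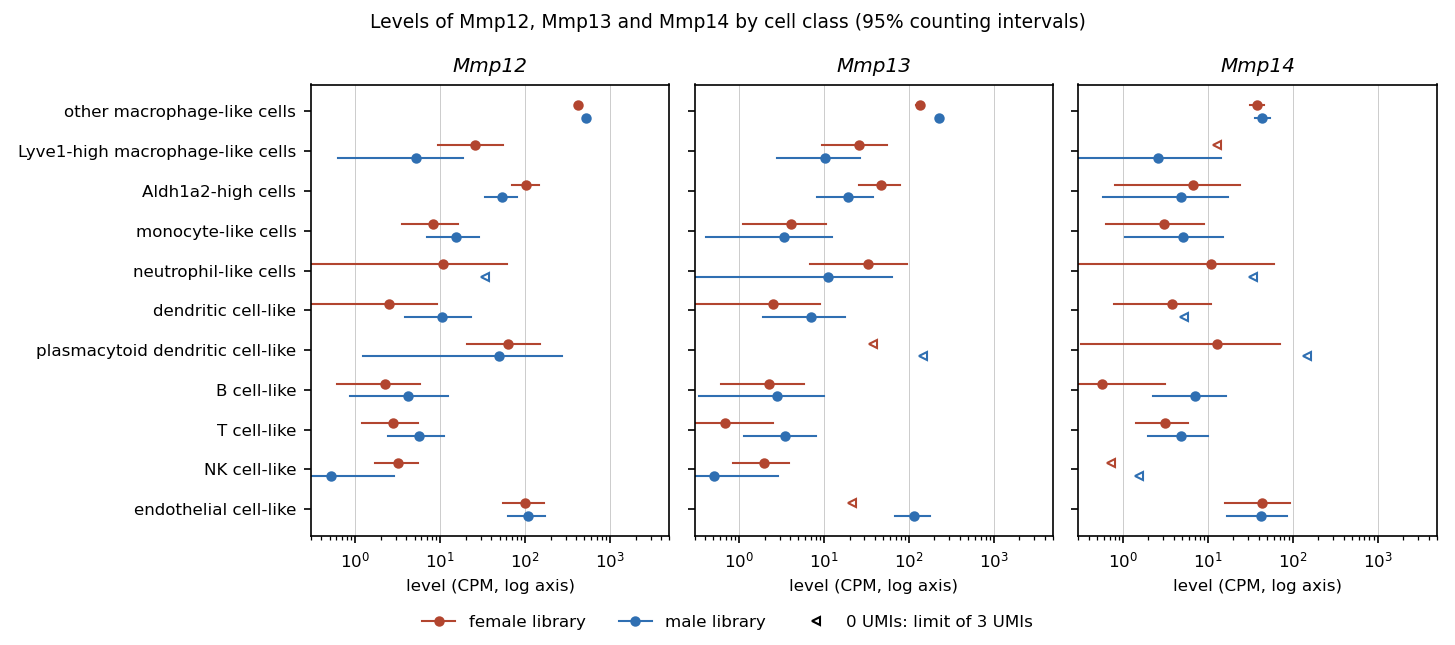
Levels of Mmp12, Mmp13 and Mmp14 in CPM on a log axis in each cell class of the female (red) and male (blue) library. Points are levels, bars are exact 95% counting intervals, and open triangles mark classes with 0 UMIs at the limit that 3 UMIs would give. Intervals that run past the left end of the axis are cut there. All 3 genes were at or near their highest level in the other macrophage-like cells, and the endothelial-like cells rest on few UMIs.

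Within the other macrophage-like cells, Mmp12 differed between clusters in the same order in both libraries. The cluster led by Ms4a7, Slc40a1 and Trem2 (147 and 97 cells) had 658 and 951 CPM. The cluster led by AA467197, C1qa and Tmem119 (260 and 207 cells) had 360 and 433 CPM, and the cluster led by Aif1, Wfdc17 and Cxcl14 (233 and 228 cells) had 279 and 310 CPM. The first of these exceeded the second 1.83-fold (1.61 to 2.07) in the female and 2.20-fold (1.94 to 2.50) in the male library. However, 5 cells held 32.7% of the female and 61.7% of the male UMIs of the Ms4a7-led cluster. After the draw 25.9% (19.0 to 33.7) and 23.7% (15.7 to 33.4) of its cells held a UMI, beside 19.6% (14.9 to 25.0) and 21.4% (16.0 to 27.6) in the Tmem119-led cluster. Mmp12, which was kept out of the clustering, was itself among the 10 leading genes of the Ms4a7-led cluster. At clustering resolution 0.6 it led a cluster with Wfdc17 and Aif1 instead (252 and 248 cells) and was not among the 10 leading genes of the Ms4a7-led one (127 and 78 cells), so its place among the clusters depends on the resolution.

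Mmp13, or collagenase 3, which cuts fibrillar collagens, was also highest in the other macrophage-like cells among the named classes, and it was lower in the female than in the male library. Its level was 134 CPM (121 to 148) in the female and 225 CPM (206 to 246) in the male library, from 382 and 498 UMIs. After the draw 9.52% (7.35 to 12.1) of female and 13.8% (10.996 to 17.1) of male cells held a UMI, against 0.148% and 0.407% of lymphocyte-like cells. No cell was as extreme as for Mmp12, the highest holding 10 and 24 UMIs.

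In the other named classes Mmp13 was lower, while the unnamed cluster of few UMIs had 208 CPM (124 to 329) and 578 CPM (448 to 734) from 18 and 67 UMIs. The male value stood above the other macrophage-like cells. The female interval held their level of 134 CPM. Aldh1a2-high cells had 46.9 and 19.3 CPM from 14 and 8 UMIs, and Lyve1-high macrophage-like cells had 25.6 and 10.3 CPM from 6 and 4 UMIs. Monocyte-like cells had 4.081 and 3.4001 CPM. In the endothelial-like cells the 2 libraries differed, with 0 UMIs in the female and 19 in the male library, 15 of the 19 in 1 cell that held 9 of the 10 macrophage markers. The other macrophage-like cells were 2.86-fold (1.68 to 5.27) above the next class in the female and 1.99-fold (1.26 to 3.33) in the male library. Unlike Mmp12, Mmp13 was not highest in the Ms4a7-led cluster of the male library, where the Tmem119-led cluster had 283 CPM and the Ms4a7-led cluster 227 CPM (0.803-fold, 0.645 to 0.993). The 5 highest cells held 28.0% and 35.2% of these UMIs, and after the draw 17.0% (12.1 to 22.8) and 17.5% (10.6 to 26.6) of the cells held one. In the female library these clusters had 144 and 165 CPM and did not differ beyond counting error (1.15-fold, 0.911 to 1.45). The Aif1-led cluster was the lowest of the 3 in both libraries, at 81.5 and 118 CPM.

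Both genes were found together in some cells. In drawn female cells a Mmp13 UMI was seen in 15.8% (9.81 to 23.6) of the 120 cells with Mmp12 and in 8.04% (5.83 to 10.8) of the 510 cells without. In male cells the shares were 15.3% (8.83 to 24.0) of 98 and 13.5% (10.4 to 17.1) of 430. In the Tmem119-led cluster they were 22.0% (11.5 to 36.0) of 50 against 8.78% (5.29 to 13.5) of 205 female cells, and 22.7% of 44 against 15.4% of 162 male cells. The male Ms4a7-led cluster went the other way, with 4.35% (0.110 to 21.9) of 23 cells with Mmp12 against 21.6% (12.9 to 32.7) of 74 without. The differences themselves were not tested.

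Mmp14, the membrane-anchored MT1-MMP (chr14:54431612-54445364, plus strand), had fewer UMIs, and among the named classes it was highest in the endothelial-like cells of the female and the other macrophage-like cells of the male library. The unnamed cluster of few UMIs had 46.3 CPM (12.6 to 119) and 147 CPM (85.4 to 235) from 4 and 17 UMIs, in the male library above every named class with UMIs. The other macrophage-like cells had 37.9 CPM (31.1 to 45.7) in the female and 43.9 CPM (35.6 to 53.5) in the male library, from 108 and 97 UMIs. Endothelial-like cells had 43.0 and 41.8 CPM from 6 and 7 UMIs, and the order of these classes was within counting error in both libraries. Lyve1-high macrophage-like cells had 0 and 1 UMIs, and 0 UMIs allow up to 12.8 CPM in the female library. NK cell-like cells had 0 UMIs in both, which allows up to 0.733 and 1.54 CPM. Within the other macrophage-like cells the Ms4a7-led cluster had 56.6 and 65.0 CPM, against 20.4 and 13.6 CPM in the Aif1-led cluster (2.78-fold, 1.48 to 5.52, and 4.77-fold, 2.17 to 11.9).

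Mmp9, gelatinase B (chr2:164940780-164955850, plus strand), had a different distribution from these 3 enzymes. It was highest in the neutrophil-like cells, then in the Lyve1-high macrophage-like cells, and nearly absent from the other macrophage-like cells. Neutrophil-like cells had 2013 CPM (1733 to 2326) in the female and 2832 CPM (2493 to 3205) in the male library, from 184 and 252 UMIs. A UMI was held by 91.7% and 96.0% of the neutrophil-like cells. In the drawn cells of the same class the shares were 87.8% (73.8 to 95.9) and 80.5% (65.1 to 91.2), each of 41 cells.

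The Lyve1-high macrophage-like cells had 230 CPM (173 to 300) of Mmp9 in the female and 424 CPM (362 to 494) in the male library, from 54 and 165 UMIs. The 5 highest cells held 40.7% and 21.2% of these, and without them the levels were 147 and 349 CPM. After the draw 17.8% (9.84 to 28.5) of 73 female and 33.1% (25.2 to 41.8) of 133 male cells held a UMI. In the other macrophage-like cells Mmp9 had 0 UMIs in the female library, which allows up to 1.05 CPM, and 8 in the male library, or 3.62 CPM (1.56 to 7.13). Mmp9 and Mmp12 thus marked different macrophage-like classes in both libraries. Neutrophil markers were higher in the Lyve1-high cells with Mmp9 in the female and lower in the male library. Their summed level was 126 and 91.7 CPM in the cells with Mmp9 and 93.2 and 113 CPM in those without, against 66.7 and 121 CPM in the other macrophage-like cells, and Cxcr2, Ly6g and Il1r2 were at 0 in this class in both libraries. The cells with Mmp9 were deeper, with a median of 3050 and 2182 UMIs against 1464 and 1411, which raises the chance of a UMI. The part of depth in which cells were counted as holding Mmp9 was not tested beyond the draw.

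T cell-like cells were the only lymphocyte-like class with 50 or more Mmp9 UMIs. They had 19.7 CPM (14.9 to 25.5) in the female and 47.3 CPM (36.7 to 59.9) in the male library, from 57 and 68 UMIs. Of these, 57 and 67 lay in the Trac-led cluster, and the Dapl1- and Cd8b1-led T cell-like cluster had 0 and 1. The 5 cells with the most held 43.9% and 39.7% of them. T cell-like cells with Mmp9 had neutrophil markers at 82.1 and 50.04 CPM, beside 57.1 and 57.1 CPM in those without. NK cell-like cells had 2.93 and 8.21 CPM, with 8 of the 16 male UMIs in 1 cell, B cell-like cells had 0 and 2 UMIs, and monocyte-like cells had 1 and 6 UMIs. Neutrophil-like cells exceeded Lyve1-high cells 8.75-fold (6.43 to 12.1) and 6.68-fold (5.47 to 8.18). Lyve1-high cells in turn exceeded the third class 9.80-fold (4.45 to 25.5) and 8.97-fold (6.72 to 12.1), while the next classes in the order, T cell-like and Aldh1a2-high cells, did not differ beyond counting error in either library.

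Timp2 (chr11:118301069-118355740, minus strand) was the most broadly detected of the 7 genes, and its level was highest in the Lyve1-high macrophage-like cells. These had 886 CPM (770 to 1015) in the female and 1095 CPM (993 to 1204) in the male library, from 208 and 426 UMIs. A UMI was seen in 61.6% (49.5 to 72.8) and 63.2% (54.4 to 71.4) of the drawn cells. Lyve1-high macrophage-like cells were 4.33-fold (3.24 to 5.86) above the next class in the female and 3.99-fold (2.94 to 5.53) in the male library.

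The other macrophage-like cells had 181 CPM (166 to 198) and 199 CPM (181 to 218) of Timp2, and after the draw 16.5% and 18.2% of them held a UMI. Among their clusters the Ms4a7-led one was highest, at 247 and 266 CPM, and the others had 159 and 182 CPM (Tmem119-led) and 162 and 169 CPM (Aif1-led). Aldh1a2-high cells had 204 and 229 CPM, and neutrophil-like cells had 186 and 135 CPM. The other macrophage-like, Aldh1a2-high and neutrophil-like cells followed each other within counting error at each step of the female order. Lymphocyte-like cells were lower but above 0, with 41.3 and 33.8 CPM in the NK class, 35.9 and 29.9 CPM in the T class and 12.4 and 5.58 CPM in the B class. The male endothelial-like cells had 275 CPM from 46 UMIs, 29 of them in 1 cell, and the female ones had 93.1 CPM from 13 UMIs. Cep295nl overlaps Timp2 on the same strand and had 5 female and 6 male UMIs.

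In Lyve1-high macrophage-like cells Timp2 and Mmp9 were both present. Of the drawn cells with Mmp9, 76.9% (46.2 to 94.96) of 13 female and 70.5% (54.8 to 83.2) of 44 male cells held a Timp2 UMI. Of those without Mmp9, 58.3% (44.9 to 70.9) and 59.6% (48.6 to 69.8) did. The shares were higher beside Mmp9 in both libraries, and the difference itself was not tested.

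**Figure D2:**
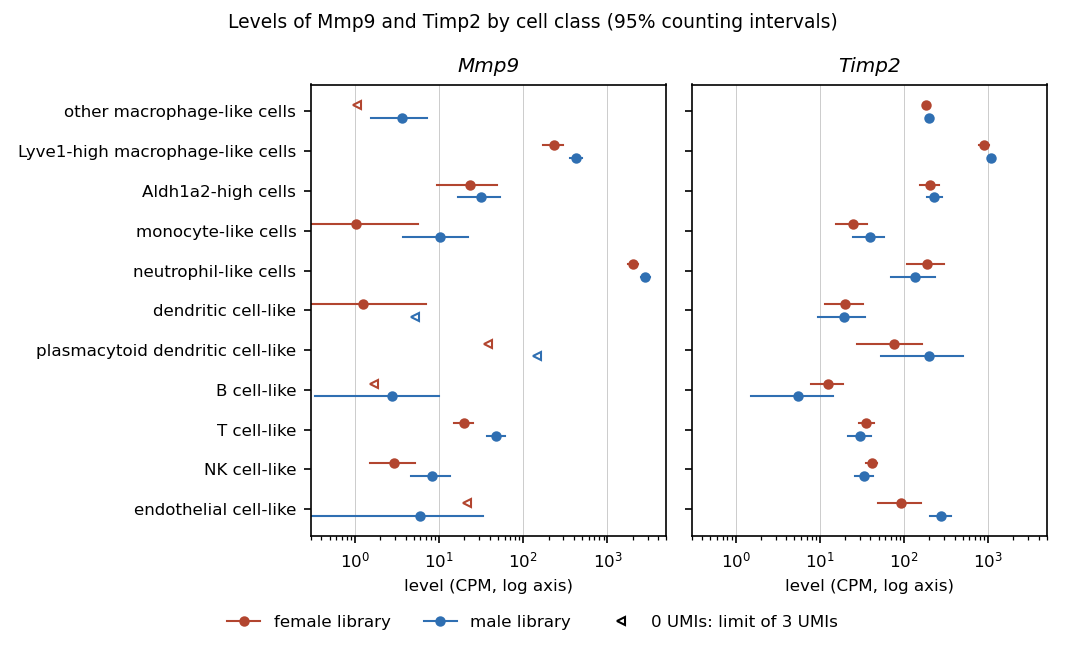
Levels of Mmp9 and Timp2 in CPM on a log axis in each cell class of the female (red) and male (blue) library, with exact 95% counting intervals and open triangles for classes with 0 UMIs. Mmp9 was above 2000 CPM in neutrophil-like cells and between 230 and 424 CPM in Lyve1-high macrophage-like cells, and Timp2 was highest in the latter.

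Mmp19, a further secreted enzyme of the family (chr10:128790910-128800824, plus strand), had 23 UMIs in each library. Aldh1a2-high cells held 5 female and 13 male UMIs, or 16.8 CPM (5.44 to 39.1) and 31.4 CPM (16.7 to 53.7). The other macrophage-like cells held 10 and 3 UMIs, and monocyte-like cells held 7 and 2. No UMI was seen in neutrophil-like, lymphocyte-like or endothelial-like cells of either library, and in the lymphocyte-like cells this allows up to 0.342 and 0.731 CPM. In the male library the Aldh1a2-high cells stood 4.07-fold (1.12 to 22.3) above the next class. A UMI was held by 12 of 98 of these cells (12.2%), and after the draw by 1 of 92 (1.09%). The female order was within counting error down to the last class with a UMI, and 1 female Aldh1a2-high cell held 3 of the 5 UMIs.

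Timp1 (chrX:20870166-20874735, plus strand) had 10 female and 4 male UMIs in all cells. Endothelial-like cells held 7 and 2 of them, or 50.1 CPM (20.2 to 103) and 11.9 CPM (1.45 to 43.1), and the other macrophage-like cells held 1 and 1. Monocyte-like and neutrophil-like cells held none, which allows up to 3.06 and 5.10 CPM in the monocyte-like cells and 32.8 and 33.7 CPM in the neutrophil-like cells. In the small classes 0 UMIs thus leave a wide range open.

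Against the lymphocyte-like cells, the other macrophage-like cells had at least 2-fold more Mmp12, Mmp13, Mmp14 and Timp2 in both libraries, 4 of the 5 genes of the family with 50 UMIs in either class, beside 13.1% of all 8660 genes with as many UMIs. Mmp9 was at least 2-fold lower, beside 11.9% of genes. Lyve1-high macrophage-like cells were higher in Mmp9 and Timp2 (2 of 2, beside 12.9%), and neutrophil-like cells likewise (2 of 2, beside 10.0%). Neither of these 2 genes was 2-fold lower in either class, beside 15% and 36.9% of genes. In Aldh1a2-high cells Timp2 was higher (1 of 2, beside 11.7%) and none was lower, beside 16.6%. In monocyte-like cells neither gene with enough UMIs was 2-fold higher (0 of 2, beside 12.3%). Mmp9 was lower there, from 1 and 6 UMIs, beside 15.8% of genes. Mmp12, with too few UMIs for this count, had 8.16 and 15.3 CPM in them against 2.85 and 2.92 CPM in the lymphocyte-like cells. Endothelial-like cells were higher in Timp2 (1 of 2, beside 13%). Their Mmp9 counted as lower, beside 10.4%, but from 0 and 1 UMIs only. In the female library 0 UMIs allow up to 21.5 CPM, against 7.87 CPM in the lymphocyte-like cells. In the male library the level was 5.97 CPM (0.151 to 33.3) against 20.9 CPM, so a lower level was not shown in either. Genes that reached 50 UMIs through the class in which they are high had to differ here, so these counts describe the classes only.

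The female and male libraries were then compared within each class, for genes with at least 50 UMIs in 1 of the libraries. In the other macrophage-like cells Mmp12, Mmp13, Mmp14 and Timp2 could be compared, and none reached a 2-fold difference, which 1.23% of 6077 genes did upward and 0.51% downward in the female library. Under a mitochondrial ceiling of 1.2%, a value that may be on another scale in the study and left 27 female and 44 male cells, the ratios of Mmp12, Mmp13 and Mmp14 were 0.124 (3 and 40 UMIs), 0.388 (8 and 34) and 0.330 (2 and 10), all beyond 2-fold. With all cells kept, the largest of these differences was that of Mmp13, at 0.595 (0.519 to 0.681) of the male level. Its ratio was 0.508 (0.424 to 0.608) in the Tmem119-led, 0.693 (0.478 to 0.99999) in the Aif1-led and 0.730 (0.561 to 0.948) in the Ms4a7-led cluster. The ratio was 0.634 (0.547 to 0.734) when the 5 highest cells of each library were left out. The ratio and its interval were thus below 1 in each of the 3 clusters, in the Aif1-led one only just, and it stayed below 1 without the highest cells.

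Mmp12 was 0.787 (0.725 to 0.854) of the male level in the same cells. Without the 5 highest cells of each library the ratio was 0.963 (0.878 to 1.06), within counting error of 1. Its value by cluster was 0.832 (0.733 to 0.945) in the Tmem119-led, 0.900 (0.731 to 1.11) in the Aif1-led and 0.691 (0.608 to 0.785) in the Ms4a7-led cluster. Leaving out the 5 highest cells of each library thus brought the lower female level of Mmp12 over the whole class within counting error. The source of the difference was not tested. Mmp14, at 0.864 (0.651 to 1.15), and Timp2, at 0.912 (0.801 to 1.04), did not differ between the libraries beyond counting error.

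In Lyve1-high macrophage-like cells Mmp9 was 0.542 (0.391 to 0.742) and Timp2 0.809 (0.682 to 0.957) of the male level. Neither reached 2-fold with all cells. Mmp9 was at 0.422 (0.277 to 0.625) without the 5 highest cells of each library. Those cells were taken from 91 female and 165 male cells and held 40.7% and 21.2% of the UMIs. The fall thus follows from unequal shares removed and is not read as passing 2-fold. A 2-fold difference was reached by 0.663% of 1207 genes upward and 1.49% downward. Mmp9 was 0.711 (0.585 to 0.863) of the male level in neutrophil-like cells, where 5.02% of 279 genes were 2-fold higher and 2.15% 2-fold lower. In T cell-like cells Mmp9 was 0.416 (0.287 to 0.6003) of the male level, the only ratio beyond 2-fold with all cells among the 11 named classes. It was 1 of 2 genes of the family that could be compared there, beside 0.192% of 5730 genes lower and 0.506% higher. Leaving out the 5 cells with the most UMIs kept the Mmp9 ratio below 1 in all 3 of these classes. By level, Mmp9 was thus lower in the female library in each named class with enough UMIs. In neutrophil-like cells the share of drawn cells with a UMI went the other way. It was 87.8% (73.8 to 95.9) in the female and 80.5% (65.1 to 91.2) in the male library, with overlapping intervals. Under a mitochondrial ceiling of 1.2%, which left 6 female and 2 male Lyve1-high cells, these held 7 and 0 Mmp9 UMIs, and the T cell-like cells 1 and 1. The Timp2 ratio in the Lyve1-high cells turned to 3.32 under that ceiling, from 14 and 1 UMIs. Timp2 did not differ beyond counting error in NK cell-like cells, at 1.22 (0.912 to 1.65), in T cell-like cells, at 1.2003 (0.834 to 1.75), or in Aldh1a2-high cells, at 0.892 (0.636 to 1.24). It reached 2-fold in neither the NK cell-like cells, where 0.296% of 7099 genes were higher and 0.197% lower, nor the Aldh1a2-high cells, where 0.314% of 1273 genes were higher and 0.786% lower.

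**Figure D3:**
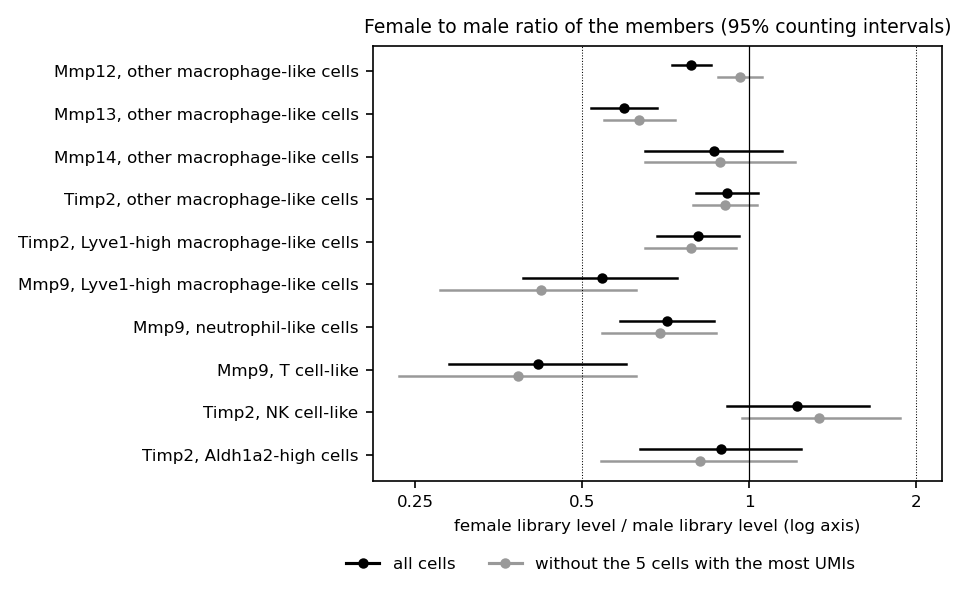
Ratio of the level in the female library to that in the male library on a log axis, for genes with at least 50 UMIs in 1 library in the class (Timp2 in T cell-like cells is not drawn), with exact 95% counting intervals. Black is all cells, grey is without the 5 cells with the most UMIs in each library, and dotted lines mark 2-fold. Removing those cells moved Mmp12 from 0.787 to 0.963 and left Mmp13 at 0.634.

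The study divides adrenal macrophages by MHC class II, so the other macrophage-like cells were split at 10 summed UMIs of Cd74, H2-Eb1, H2-Ab1 and H2-Aa per 1000 drawn UMIs. The low group held 166 of 630 female cells (26.3%) and 22 of 528 male cells (4.17%). In the female library Mmp12 was lower in the low cells, with 140 CPM against 514 CPM in the high cells (ratio 0.273, 0.221 to 0.334). In the male library it was higher in the low cells, with 2829 against 429 CPM (6.59, 5.71 to 7.59). The direction was thus opposite in the 2 libraries when UMIs were pooled, but under the mitochondrial ceiling of 1.2% the male ratio turned to 0.198, from 1 and 38 UMIs.

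The male value came from very few cells. Of the 254 Mmp12 UMIs in the 22 male low cells, 244 lay in 3 cells and all lay in 5, and the other 17 cells held 0. The share of drawn cells with a UMI was 18.2% (5.19 to 40.3) in the male low and 18.6% (15.3 to 22.2) in the male high cells. In the female library the share was 9.64% (5.61 to 15.2) in the low and 22.4% (18.7 to 26.5) in the high cells. By share of cells, the female intervals stood apart and the male ones overlapped, the male low interval being wide. Among high cells alone Mmp12 was 1.198 (1.095 to 1.31) times the male level in the female library, the reverse of the ratio over the whole class.

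The female difference in Mmp12 was not the same in each cluster. The ratio of low to high cells was 0.182 (0.135 to 0.240) in the Tmem119-led cluster, where 116 of 255 female cells were low. It was 0.525 (0.313 to 0.836) in the Aif1-led cluster with 40 of 228 cells low, and 0.918 (0.608 to 1.34) in the Ms4a7-led cluster with 10 of 147. In the male Tmem119-led cluster the 12 low cells held 0 Mmp12 UMIs, beside 470 in the high cells (445 CPM). The male ratios in the other clusters were opposite, at 6.86 (4.71 to 9.81) in the Aif1-led (7 low cells) and 9.82 (8.20 to 11.7) in the Ms4a7-led cluster (3 low cells).

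Mmp13 was also lower in female low cells, at 52.1 against 164 CPM (0.318, 0.222 to 0.444). The male ratio was 0.533 (0.264 to 0.962) from 11 UMIs in the low cells, and 1.04 with every cell weighted equally. With the 5 highest cells of each group left out, 19 low and 298 high female and 2 low and 398 high male UMIs remained. The Mmp13 ratios were then 0.181 in the female and 0.189 in the male library. Since 5 cells are a larger part of the smaller low groups, this fall cannot be read as a result. After the draw 7.23% (3.79 to 12.3) of female low and 10.3% (7.73 to 13.5) of female high cells held an Mmp13 UMI, and 13.6% (2.91 to 34.9) and 13.8% (10.9 to 17.2) of the male cells. Among high cells Mmp13 was 0.713 (0.619 to 0.820) of the male level in the female library, so it remained lower there after the split. Mmp14 did not differ by MHC class II beyond counting error, with ratios of 1.004 (0.628 to 1.56) and 1.84 (0.717 to 3.94), and neither did Timp2, with 0.925 (0.752 to 1.13) and 1.06 (0.635 to 1.68).

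**Figure D4:**
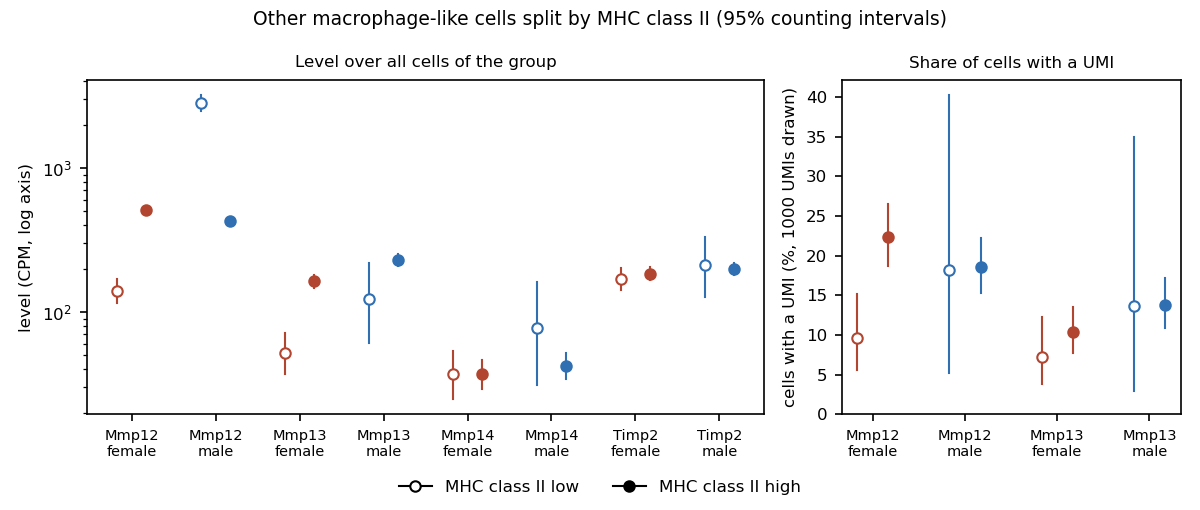
Left, levels in CPM on a log axis in MHC class II low (open) and high (filled) other macrophage-like cells of the female (red) and male (blue) library. Right, percent of cells with a UMI after a draw of 1000 UMIs per cell. Bars are exact 95% counting intervals, and the male low group is 22 cells, in which Mmp12 had a level of 2829 CPM but a share of cells of 18.2%.

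Genes whose levels ran most like each member over the 11 classes of both libraries (22 points that share libraries and depth) were sought among 8470 genes by Pearson correlation of log2(CPM + 10), as a description. For Mmp12 these were Slc13a3, a dicarboxylate transporter (r = 0.865), Col14a1, a fibril-associated collagen (0.858), and Tmcc3 (0.857). For Mmp13 they were Abcc3, an export pump (0.896), Olfml3 (0.882) and the adhesion molecule Vcam1 (0.857), and for Mmp14 Tmem119 (0.898), Ch25h, cholesterol 25-hydroxylase (0.890), and the intermediate filament gene Nes (0.878). For Mmp9 they were Ip6k1, an inositol phosphate kinase (0.899), the cytokine gene Osm (0.864) and S100a9 (0.851), and for Timp2 Ski (0.886), the transcription factor gene Etv5 (0.836) and Stxbp3 (0.829). Among the members, Mmp12 was most like Mmp14 (0.802) and Mmp13 (0.736) and least like Mmp9 (-0.30), and Mmp9 was closest to Timp2 (0.497).

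A list of 59 further genes of matrix proteolysis was read in the same classes. Of these, 6 had no UMI, 31 had at least 50, and 22 of the 31 were highest in the same class in both libraries. That class was the endothelial-like one for 9 genes, the neutrophil-like one for 5, the other macrophage-like and the Lyve1-high one for 3 each, and the monocyte-like and the NK cell-like one for 1 each. No share over all genes stands beside these counts, so they describe the list and do not set it apart from other genes. Against lymphocyte-like cells, 11 of the 17 list genes with enough UMIs were at least 2-fold higher in the other macrophage-like cells and 1 was lower, beside 13.1% and 11.9% of all genes. Here too, genes that reached 50 UMIs through the class in which they are high had to differ. The list was also chosen with earlier results known, so these counts describe the class only.

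Among the other metalloproteinases, Mmp8, the neutrophil collagenase, had 722 and 708 CPM in neutrophil-like cells, while the monocyte-like cells had 38.8 and 51.0 CPM. Mmp9 and Mmp8 thus shared their highest class. Mmp2, gelatinase A, which MMP14 and TIMP2 activate together, was low in the other macrophage-like cells (2.81 and 5.88 CPM), and Mmp15, a membrane-type metalloproteinase, had 43.0 and 17.9 CPM in the endothelial-like cells. Timp3, an inhibitor that binds to the matrix, had 2227 and 1857 CPM in endothelial-like cells and 23.9 and 22.2 CPM in the other macrophage-like cells. The inhibitors thus differed in place, with Timp2 highest in Lyve1-high macrophage-like cells and Timp3 in endothelial-like cells.

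Of the membrane-bound ADAM proteases, Adam15 was high in Lyve1-high macrophage-like (379 and 375 CPM) and Aldh1a2-high cells (369 and 362 CPM). Adam17, the TNF-converting enzyme, had 101 and 104 CPM in the other macrophage-like cells. Plaur, the urokinase receptor, had 186 and 371 CPM in neutrophil-like cells, while the monocyte-like cells had 136 and 145 CPM. The hyaluronan receptor Cd44, a surface partner of MMP9, had 1160 and 1461 CPM in neutrophil-like cells. Lrp1, an endocytic receptor that clears proteases, had 326 and 364 CPM in monocyte-like cells. The protease furin, which removes the propeptide of MMP14, was highest in neutrophil-like cells (Furin, 153 and 214 CPM). Bsg, which encodes the metalloproteinase inducer basigin, was highest in Lyve1-high macrophage-like cells (277 and 383 CPM). Cd63, a tetraspanin that binds TIMP1, had 794 and 1060 CPM in the other macrophage-like cells. Col14a1 had 132 and 107 CPM in the same cells, so the collagen gene most like Mmp12 in its pattern was itself in the list.

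**Figure D5:**
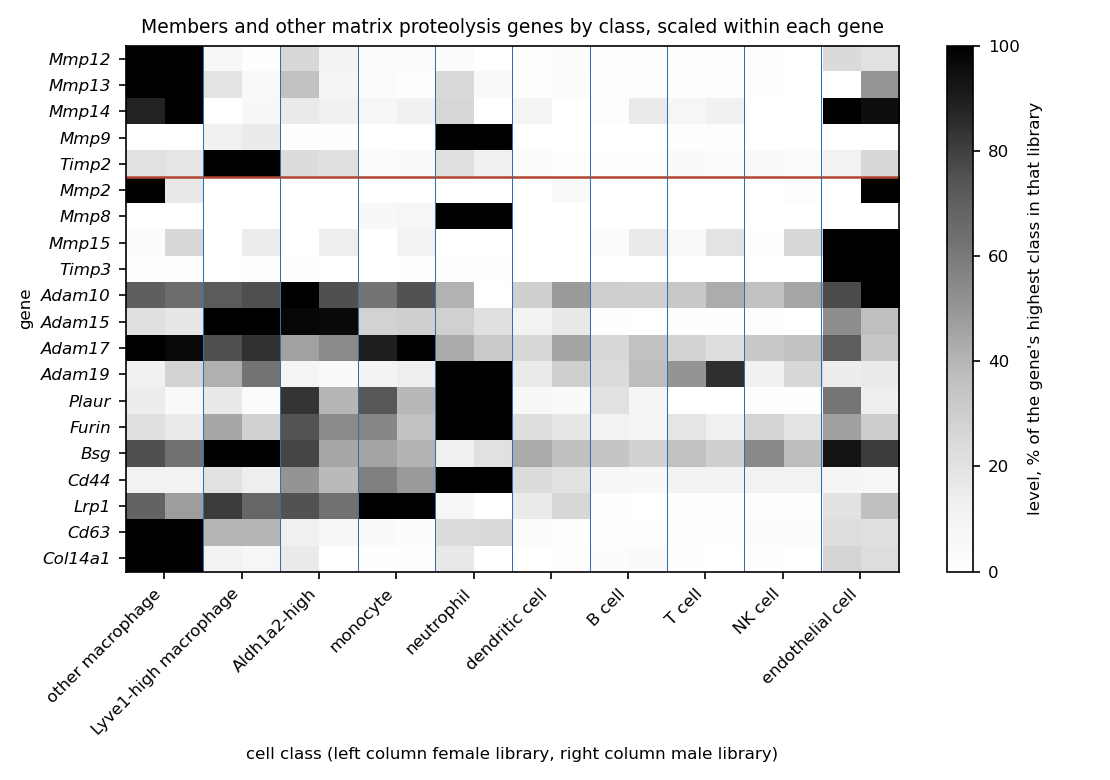
Level of each gene in each class as a percent of its highest class drawn in that library, with the left column of each pair for the female and the right for the male library. The 5 genes above the line are the members with at least 200 UMIs, the others are the genes of the proteolysis list with the most UMIs and the other Mmp and Timp genes with at least 50, and plasmacytoid dendritic-like cells (21 and 8 cells) are not drawn. Mmp12 and Mmp13 were darkest in the other macrophage-like cells, Mmp9 and Mmp8 in the neutrophil-like cells, Timp2 in the Lyve1-high and Timp3 in the endothelial-like cells.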

How the data were processed

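The deposited values are raw UMI counts per gene and barcode. Per the labels, the authors made these counts with Cell Ranger 4.0.0, and their processing notes name the build mm10. The library of females held 16218309 UMIs in 3963 barcodes and that of males 9512670 in 2685. Barcodes with at least 200 genes and at most 15% mitochondrial UMIs were kept. A ceiling of 1.2%, as in the methods of the study, kept 333 and 366 barcodes by itself, far fewer than the cells the study describes, so it may be on another scale there; it was run as an alternative. The top Scrublet scores (scanpy 1.11.5) were removed at 0.8% per 1000 barcodes (123 and 53), since its automatic threshold marked 1 and 8. Cells were clustered on 2000 features with Seurat 5.3.0 and sctransform 0.4.2 (20 components, resolution 1), with 96 genes held out, the 7 members and the proteolysis list among them. The 21 clusters were named from marker lists by a rule set after the clusters were seen, 18 of them into 11 classes. Intervals are exact (Poisson, Clopper-Pearson, conditional binomial) and cover counting error only, so no p-value is given. The ratio interval was run on counts simulated as Poisson, which checks the code only. That run cannot show how the intervals hold where UMIs gather in few cells. The members, lists and the MHC class II boundary were chosen with earlier results of these data known. Named list genes are the 12 with the most UMIs and other Mmp or Timp genes with 50 or more. For each member with 200 UMIs the 3 genes most like it are given. Alternatives were 2 mitochondrial ceilings, no doublet removal, a per-cell marker gate, resolution 0.6, cells weighted equally, the 5 highest cells left out, other draws and another MHC class II boundary.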

Additional observations from a re-analysis of the deposited data

Results flagged for a closer look

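The ratio of Mmp12 between MHC class II low and high other macrophage-like cells stood on opposite sides of 1 in the 2 libraries, 0.273 in the female and 6.59 in the male library. The difference between the libraries was not tested, since each is 1 library. All 254 male UMIs of the low group lay in 5 of its 22 cells.

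A cluster of cells with few UMIs (70 female and 142 male cells, median 792 and 669.5 UMIs per cell), led by Adap2os, F630028O10Rik and E230029C05Rik, was left unnamed and is not among the named classes. The 10 macrophage markers summed to 42906 and 30714 CPM in it, and Mmp13 was among its 10 leading genes. Mmp12 stood at 440 CPM in the female and 630 CPM in the male part of this cluster. Mmp13 stood at 208 and 578 CPM, a ratio of 0.361 (0.202 to 0.614). Mmp14 stood at 46.3 and 147 CPM, and Timp2 at 301 and 207 CPM. These levels drew attention since they lie in cells outside the named classes.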

How the results depend on the processing

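A value is called moved where it left its own 95% counting interval. Clustering at resolution 0.6 kept all 58 class values recomputed within it, values of single clusters not being among them. Adding the unnamed cluster of few UMIs to the other macrophage-like cells, an alternative chosen after the data were seen, kept all 12, with male Mmp13 at 243 CPM and its ratio at 0.561. Without doublet removal 4 of 72 values moved, and under a mitochondrial ceiling of 5% 3 of 72 did, among them Mmp9 in Lyve1-high cells at 173 CPM in the female and 338 CPM in the male library. Under the ceiling of 1.2%, whose scale in the study is unsure, and which left 27 and 44 other macrophage-like, 6 and 2 Lyve1-high and 20 and 23 neutrophil-like cells, 43 of 68 values moved and 3 reversed. In other macrophage-like cells Mmp12 was then 31.4 and 254 CPM, female Mmp13 83.9 CPM and Mmp14 21.0 and 63.5 CPM, with female to male ratios of 0.124, 0.388 and 0.330. In Lyve1-high cells Timp2 was 1016 and 306 CPM and Mmp9 508 and 0 CPM, and female Mmp9 in neutrophil-like cells was 2417 CPM. The ratios of low to high MHC class II were 0.127 for female Mmp13 and 11.3 for male Mmp14. The reversed values were Timp2 in Lyve1-high cells at a female to male ratio of 3.32 (14 and 1 UMIs), Mmp9 in T cell-like cells at 1.13 (1 and 1 UMIs) and the male MHC class II ratio of Mmp12 at 0.198 (1 and 38 UMIs). The lower numbers of cells follow from the ceiling itself. The per-cell marker gate, which gave no Lyve1-high cell, put Mmp12 at 379 and 437 CPM with a ratio of 0.866 and male Mmp13 at 201 CPM. With cells weighted equally, Mmp12 was 352 and 396 CPM with a ratio of 0.890, male Mmp14 32.5 CPM and its ratio 1.18. The MHC class II ratios were then 0.335 and 3.12 for Mmp12 and 0.502 for female Mmp13, and that of male Mmp13 reversed to 1.04. The cause was not tested. Without the 5 highest cells, Mmp12 was 366 and 380 CPM with a ratio of 0.963 and Mmp13 119 and 188 CPM. Mmp9 was 147 and 349 CPM in Lyve1-high and 1610 and 2334 CPM in neutrophil-like cells, and the MHC class II ratios were 0.1601 for female Mmp12 and 0.181 and 0.189 for Mmp13. In these ratios 5 cells are a larger part of the smaller low groups. For female Mmp12 they held 53 of 105 low and 147 of 1076 high UMIs, so the falls cannot be read as results. For male Mmp12 the MHC class II ratio could not be had, since no UMI remained in the 17 low cells left. With the MHC class II boundary at 20 per 1000 the Mmp12 ratios were 0.416 and 4.08. Shares of cells followed the draw, with 17 of 24 moved under a draw of 500 UMIs and 19 of 24 without one. No paired analysis was possible because each sex has 1 library. Depth limits Mmp19 (23 and 23 UMIs over all cells kept) and Timp1 (10 and 4 UMIs) to wide intervals.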

Other observations

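Further genes of the proteolysis list showed class patterns not described above, of which Adam8, Sparc, Col4a1, Adamts10 and Reck were picked after their values were seen. Adam8, a leukocyte metalloproteinase of the ADAM family, had 449 and 382 CPM in neutrophil-like cells of the female and male library and 171 and 130 CPM in Aldh1a2-high cells, against 14.0 and 9.50 CPM in the other macrophage-like cells. Adam19 had 153 and 112 CPM in neutrophil-like cells from 14 and 10 UMIs and 77.6 and 95.2 CPM in T cell-like cells. Adam10, a broadly used shedding protease, had 150 and 112 CPM in the other macrophage-like and 133 and 129 CPM in monocyte-like cells, and 62.8 and 83.9 CPM in dendritic cell-like cells. Adamts10 was highest in NK cell-like cells, at 50.6 and 55.9 CPM, and Reck, a membrane-anchored inhibitor, had 9.04 and 9.23 CPM there and 0 UMIs in the other macrophage-like cells.

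Of the 5 matrix substrate genes of the list with 50 or more UMIs, 4 were highest in the endothelial-like cells of both libraries and Col14a1 in the other macrophage-like cells. Col4a1 had 695 and 484 CPM and Sparc 1253 and 1308 CPM in them, against 8.77 and 11.3 CPM and 22.8 and 19.9 CPM in the other macrophage-like cells.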
